A study of Mus musculus with 17 samples.

Results

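The 10 genes described here mark T cells and the checkpoints that restrain them: the receptor chains Cd3e and Cd3g, the coreceptors Cd4 and Cd8a, the regulatory factor Foxp3, the inhibitory receptors Ctla4 and Pdcd1, the ligand Cd274, and the effectors Gzmb and Il17a. They were taken by name from a table of 43346 genes, in which each name occurred once, with no filter on expression. All 17 samples of the series are mouse bile duct, and the series concerns extrahepatic cholangiocarcinoma, which arises in the large ducts that drain the liver. The labels give no strain, genotype, treatment, age or sex and do not say which cells were tumour, so no condition could be compared. The libraries are known by their column names, such as R62848_1, in which a code precedes a number and which match no sample title. There were 6 codes, 5 of them with 3 libraries and R63494 with 2. The sources used here do not say what a code stands for.

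A T cell reads antigen with a receptor that signals through the CD3 chains, while CD4 or CD8 binds the presenting molecule and sets the helper or killer lineage. CTLA-4 and PD-1, encoded by Ctla4 and Pdcd1, are receptors on activated T cells that dampen this signal, and PD-L1, encoded by Cd274, is the PD-1 ligand that tumour, myeloid and other cells can display. In tumours of the biliary tract these molecules are targets of immune checkpoint antibodies, and FOXP3 marks the regulatory T cells that hold other T cells back.

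Promoter entries of RefSeq on GRCm38.p6 covered 9 of the 10 genes, all but Cd4. The windows of Cd3e and Cd3g are shown because these chains sit in the same receptor, lie near each other on chromosome 9, and had the highest correlation over the libraries among the 36 pairs of tested genes, before code means were subtracted; that of Il17a is shown because this gene varied most. Each line gives the 250 bases before the RefSeq start, 5′ to 3′ on the strand of the gene. In Cd3e and Cd3g the capitals mark TTTCCAAGTG, the longest run of letters that the windows share. It lies at positions -61 to -52 from the start of Cd3e and at -182 to -173 from that of Cd3g. Of 32841 mouse promoter windows of this length, Cd3e and Cd3g included, 0.0822% hold it on either strand. Because the run was picked for being shared, this share does not say how often a pair of windows shares a run of its length. In Il17a the capitals mark TGACCT at -120 to -115, which is AGGTCA, a half-site of nuclear receptors, on the other strand, and the TATA box TATAAA at -31 to -26. AGGTCA was found on either strand in 4607 of the 32841 windows and TATAAA in 4062. These matches describe the letters only.
Cd3e (chr9:45009612-45009861, minus strand): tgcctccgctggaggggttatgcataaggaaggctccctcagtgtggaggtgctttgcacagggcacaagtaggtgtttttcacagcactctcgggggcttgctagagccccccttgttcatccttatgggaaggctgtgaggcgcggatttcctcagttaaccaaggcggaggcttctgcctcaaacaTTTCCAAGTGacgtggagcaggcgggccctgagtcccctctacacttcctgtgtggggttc
Cd3g (chr9:44980432-44980681, minus strand): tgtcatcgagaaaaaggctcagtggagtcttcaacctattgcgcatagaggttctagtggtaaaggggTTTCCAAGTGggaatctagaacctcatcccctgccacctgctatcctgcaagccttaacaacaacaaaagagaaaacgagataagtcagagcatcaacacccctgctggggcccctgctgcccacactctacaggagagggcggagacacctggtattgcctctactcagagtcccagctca
Il17a (chr1:20730655-20730904, plus strand): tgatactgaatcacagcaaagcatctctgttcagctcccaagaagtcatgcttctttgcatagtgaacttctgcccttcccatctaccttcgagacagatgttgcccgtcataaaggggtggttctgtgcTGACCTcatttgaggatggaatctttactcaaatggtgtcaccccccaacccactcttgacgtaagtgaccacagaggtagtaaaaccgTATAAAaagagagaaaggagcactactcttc

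Library totals were 16400556 to 24152314 counts. Cholangiocyte markers were abundant in every library, and the keratin gene Krt19 lay between 987 and 1665 CPM, which are counts per 1e6 of the library total scaled by edgeR's TMM factor. All 136 pairs of libraries differed by more than sampling noise, with a chi-square of at least 3.92 per degree of freedom. The 3 libraries of R62850 held digestive enzyme RNA of the pancreas: Ctrb1 had 27768, 114699 and 531788 counts there and at most 161 elsewhere. Because this RNA takes a share of the counts, TMM raised the values of R62850_3 against totals, and the levels named for that library are given both ways where the text turns on them.

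Whether a gene differed between codes was asked with edgeR's quasi-likelihood F test over all tested genes, with Benjamini-Hochberg adjustment and a threshold of 0.05. Of 19412 tested genes 42.2% passed. Of the 10 genes 9 were tested, and 3 of the 9 passed: Il17a (adjusted p = 0.0067), Cd8a (adjusted p = 0.0149) and Pdcd1 (adjusted p = 0.0262). The other 6 did not pass, with Cd3g at 0.0989 and Cd4 at 0.109, and Gzmb was too low to be tested. A count of 3 in 9 is near the share of all genes. Among the 7802 tested genes whose median lay in the span of these 9, from 0.223 to 10.2 CPM, 28.5% passed. The p-values set differences between codes against the spread between libraries of the same code, part of which may be technical. Nothing says that libraries of a code came from separate animals. If they did not, that spread may be too small and the p-values too low. In tissue RNA, fewer cells of a type and less RNA per cell cannot be told apart.

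**Figure D1:**
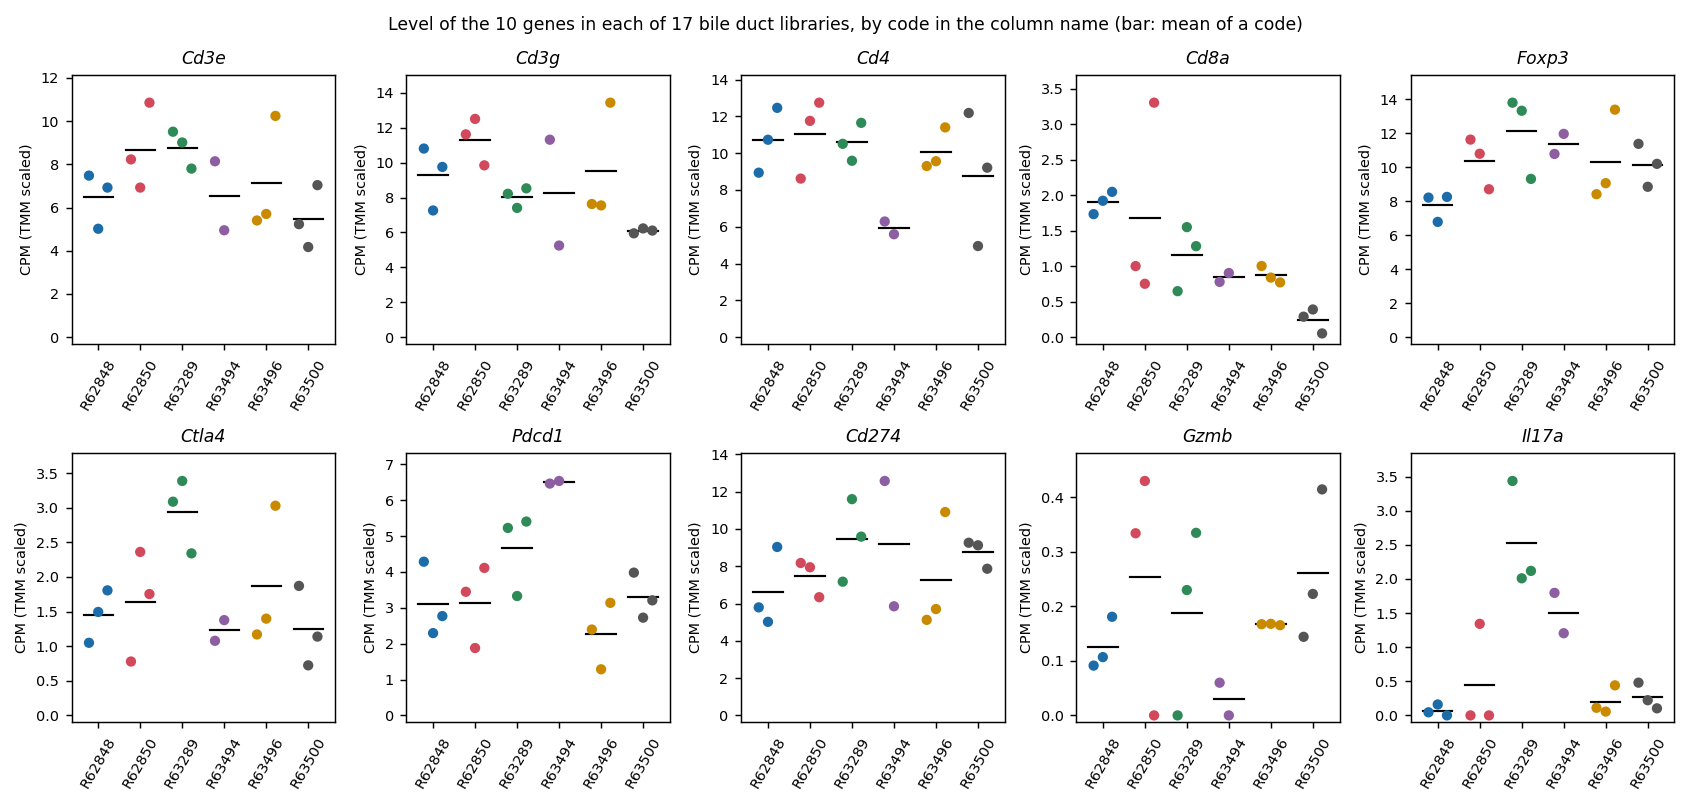
CPM (vertical axes, linear, each with its own scale) of the 10 genes in the 17 libraries, set out by code, with a bar at the mean of each code. Il17a is high in R63289 and R63494 and in a single R62850 library, Cd8a is lowest in R63500 and Pdcd1 highest in R63494, and Foxp3 lowest in R62848, whereas the codes overlap for Cd3e, Ctla4 and Cd274.

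Levels were compared between genes only as CPM per kilobase of the table's gene length (RPKM). The CD3 chains led: the median was 7.68 RPKM for Cd3g and 4.90 RPKM for Cd3e. Foxp3 (2.56 RPKM), Cd4 (2.38 RPKM), Cd274 (2.19 RPKM) and Pdcd1 (1.73 RPKM) followed. Ctla4 (0.641 RPKM), Cd8a (0.289 RPKM), Il17a (0.190 RPKM) and Gzmb (0.118 RPKM) were lowest. Cd3g exceeded Cd3e, and Cd3e exceeded Foxp3, in 17 of 17 libraries. Neighbours further down were less settled: Foxp3 exceeded Cd4 in 8 libraries, Cd4 exceeded Cd274 in 11, and Cd274 exceeded Pdcd1 in 12. Pdcd1 stood above Ctla4 in 16 libraries and Ctla4 above Cd8a in 15, while Cd8a and Il17a, and Il17a and Gzmb, changed places from library to library.

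**Figure D2:**
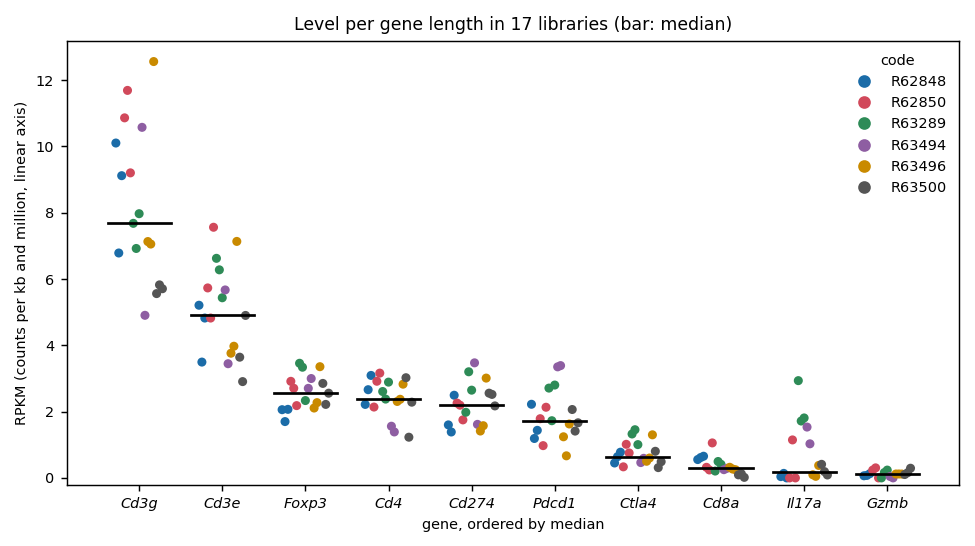
RPKM (vertical axis, linear) of each gene in 17 libraries, coloured by code, ordered from the highest median (Cd3g, 7.68) to the lowest (Gzmb, 0.118); bars are medians. The middle group of Foxp3, Cd4, Cd274 and Pdcd1 overlaps.

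Cd3e and Cd3g encode chains of the CD3 complex, which carries the receptor's signal into the cell. Cd3e (ENSMUSG00000032093, mm10 chromosome 9, from 44998743 to 45009590, minus strand) had 75 to 191 counts. In CPM its lowest value was 4.17, in R63500_2, its median 7.04 and its highest 10.9, in R62850_3. Cd3g (ENSMUSG00000002033, chromosome 9, from 44969572 to 44980431, minus strand) ran from 5.25 CPM in R63494_2 through a median of 8.22 to 13.4 CPM in R63496_3. Code means of Cd3e lay between 5.48 ± 1.45 CPM (SD, n = 3) in R63500 and 8.78 ± 0.878 CPM (SD, n = 3) in R63289. For both genes the spread within a code was nearly as wide as that over all 17 libraries, with a coefficient of variation of 25.4% against 27.3% for Cd3e and of 24.8% against 28.1% for Cd3g. Counting alone would give 8.68% and 7.86%. The 3 libraries of R63500 were close for Cd3g, at 5.95 to 6.23 CPM, while the 2 of R63494 stood at 5.25 and 11.3 CPM.

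The 3 libraries with the most RNA of Ms4a1, which encodes the B cell surface protein CD20, were R62850_3 (14.5 CPM, or 12.3 CPM by total counts), R62850_2 (9.93 CPM) and R63496_3 (5.56 CPM), against a median of 1.07 CPM. R62850_3 had the highest Cd3e, at 10.9 CPM, and R63496_3 the next, at 10.2 CPM, but R62850_2 had 6.92 CPM, below the median. For Cd3g the highest were R63496_3, at 13.4 CPM, and R62850_2, at 12.5 CPM, and R62850_3 had 9.85 CPM. Scaled by total counts alone, Cd3e was highest in R63496_3, at 10.4 CPM, and R62850_3 was the fourth, at 9.21 CPM. The summed level of the 7 B and plasma cell markers did not follow: it was 753, 867 and 1983 CPM in R62850_3, R62850_2 and R63496_3 within a range of 249 to 1983, with the J chain gene Jchain as its main part. Whether lymphoid tissue with B cells took part in the Cd3 levels was not tested.

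Across the 17 libraries Cd3e and Cd3g had a Pearson r of 0.66 on log2 CPM, the highest of the 36 pairs among the 9 tested genes, and 0.65 after the mean of each code was subtracted, when Cd3g and Cd274 (0.79) and Cd4 and Ctla4 (0.73) were higher. This is a description with no p, since libraries of a code are not known to be independent. Before subtraction Cd4 and Ctla4 came next, at 0.62. At the other end Foxp3 and Cd8a had an r of -0.35. Cd3d, the third CD3 gene, which starts beside Cd3g on the other strand, stood at 2.45 to 6.43 CPM, and the zeta chain gene Cd247 at 7.62 to 15.7 CPM.

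Among 15604 other protein-coding genes the patterns most like that of Cd3e were those of Trim23 (r = 0.84), Bach2 (0.82), Ethe1 (0.82), Ogn (0.81) and Brcc3 (0.81) over 17 libraries. Bach2, a transcription factor of lymphocytes, ran from 2.34 to 6.13 CPM. With so many candidates and 17 libraries, high values of r arise somewhere in the list, and no p is given.

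Cd4, the coreceptor of helper and regulatory T cells (ENSMUSG00000023274, chromosome 6, from 124864692 to 124888221, minus strand), had 89 to 254 counts, with 4.95 CPM in R63500_2, a median of 9.59 CPM and 12.7 CPM in R62850_3. By total counts the highest library was R62848_3, at 12.6 CPM. Both R63494 libraries were low, at 5.59 and 6.29 CPM, and among the other 15 R63500_2 alone fell in or below that span. The F test did not pass (adjusted p = 0.109), but it passed without R63500_1 (0.033) or without R63500_2 (0.0356).

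Cd8a, which encodes the CD8 alpha chain of killer T cells (ENSMUSG00000053977, chromosome 6, from 71373427 to 71379171, plus strand), had fewer counts, 1 to 49, and differed between codes (adjusted p = 0.0149). R63500 had 6, 7 and 1 counts, or 0.288, 0.389 and 0.0518 CPM, below each of the other 14 libraries. The next lowest library, R63289_1, had 13 counts (0.647 CPM). R62848 was even, at 1.73, 1.92 and 2.05 CPM, whereas R62850 held 18 and 14 counts beside 49 counts, or 3.30 CPM, in R62850_3, the highest by either scaling. The remaining codes lay between 0.647 and 1.55 CPM. Between the extreme libraries, 49 counts against 1, the ratio was 63.9 (95% exact interval 10.9 to 2573, counting error only). By total counts the ratio was 53.3 (9.13 to 2148). Neither interval allows for the libraries having been picked as extremes. The code test rested on R63500_3: without it the adjusted p was 0.056.

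Relative to Cd4, Cd8a was low in every library. The ratio of RPKM had a median of 0.142, with the lowest value of 0.00724 in R63500_3 and the highest of 0.334 in R62850_3. Cd8b1, the gene of the CD8 beta chain that pairs with CD8 alpha on killer T cells, had a median of 9 counts and 0.111 to 1.28 CPM. It did not pass between codes (adjusted p = 0.673), and in R63500 it had 12, 5 and 8 counts. CD8 alpha is also made by some dendritic cells and by lymphocytes of the gut lining that carry it without the beta chain. Xcr1 and Clec9a, markers of the dendritic cells that carry CD8 alpha, were highest in R63494_1 (2.81 CPM) and R62848_1 (2.69 CPM), and neither passed between codes (adjusted p = 0.748 and 0.752). Siglech, a marker of plasmacytoid dendritic cells, was highest in R62850_3 with TMM (4.25 CPM) and in R62850_2 by total counts. Flt3 was highest in R63496_2 (7.27 CPM), and Itgax in R63500_3 (121 CPM), where Cd8a was lowest. The part of dendritic cells in the Cd8a level was not tested.

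Foxp3, the transcription factor of regulatory T cells (ENSMUSG00000039521, X chromosome, from 7579676 to 7595243, plus strand), had 127 to 278 counts. Its lowest level was 6.78 CPM in R62848_2, the median 10.2 CPM and the highest 13.8 CPM in R63289_1. Code means ran from 7.75 ± 0.838 CPM (SD, n = 3) in R62848 to 12.1 ± 2.46 CPM (SD, n = 3) in R63289. All 3 libraries of R62848 lay at or below 8.25 CPM, under each of the other 14, of which the lowest was R63496_1 at 8.41 CPM, yet the test did not pass (adjusted p = 0.158). Per length the ratio of Foxp3 to Cd3e had a median of 0.521.

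The Foxp3 counts may include reads of another gene. In the table the last 1435 bases of Foxp3 are also covered by Ccdc22, an endosomal sorting gene on the minus strand (X chromosome, from 7593809 to 7605517), which had a median of 391 counts against 180 for Foxp3. The noncoding transcript RP23-135F22.6, minus strand, covers Foxp3 and most of Ccdc22 (from 7558602 to 7605381), and its counts were 0.950 to 1.09 times those of Ccdc22. The sources used here state neither how reads in shared stretches were assigned nor whether strand was used. Foxp3 and Ccdc22 had an r of 0.67, and 0.69 with code means subtracted. Foxp3 and Il2ra, the gene of the IL-2 receptor alpha chain CD25 on regulatory T cells, had 0.12 and 0.34. Some T cell genes were nearer to Foxp3: Il17a had 0.61 and 0.29, Ctla4 0.47 and 0.48, Cd3e 0.44 and 0.45, and Pdcd1 0.37 and 0.20. Others were not: Cd3g had 0.09 and 0.38, Cd4 -0.07 and 0.17, and Cd8a -0.35 and -0.42. The ratio of Foxp3 to Ccdc22 counts lay between 0.359 and 0.671. The part of Ccdc22 reads in the Foxp3 value was not tested, so the level of Foxp3 and its ratios are uncertain.

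**Figure D3:**
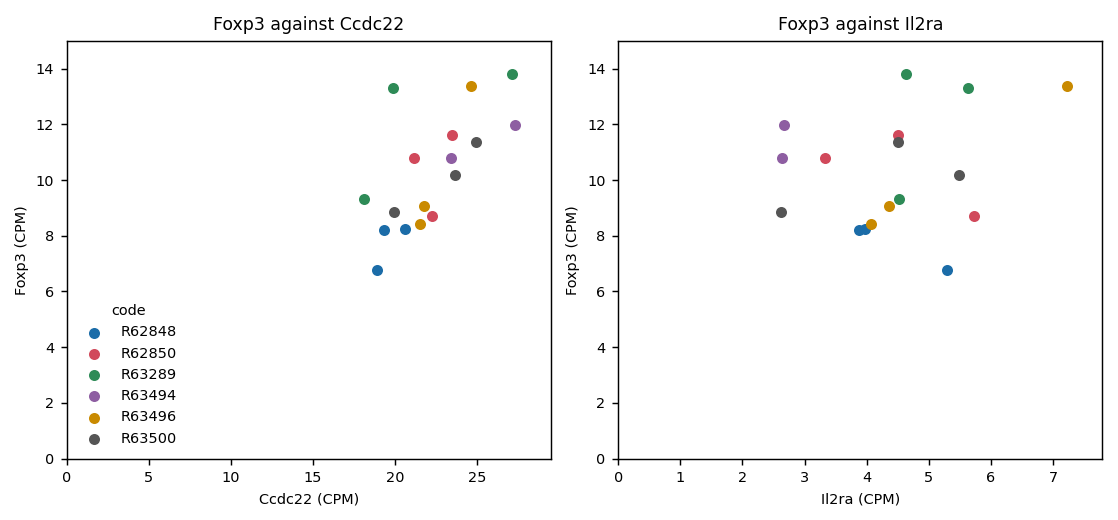
Foxp3 CPM (vertical axes) against Ccdc22 CPM (left) and Il2ra CPM (right) in the 17 libraries, coloured by code, all axes linear from 0. Libraries high in Ccdc22 tend to be high in Foxp3 (r = 0.67), with less of such a pattern for Il2ra (r = 0.12). Other T cell genes, not drawn, lay on both sides of Il2ra, such as Ctla4 (r = 0.47) and Cd4 (r = -0.07).

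Ctla4, the inhibitory receptor that competes for the CD80 and CD86 ligands (ENSMUSG00000026011, chromosome 1, from 60887000 to 60915832, plus strand), had 13 to 62 counts. It ran from 0.723 CPM in R63500_2 through a median of 1.49 CPM to 3.39 CPM in R63289_2. The R63289 libraries held 3.09, 3.39 and 2.34 CPM, and outside that code R63496_3 (3.03 CPM) and R62850_2 (2.36 CPM) reached the same span. The test did not pass (adjusted p = 0.178). A pseudogene of a ribosomal protein, Rpl18-ps1, lies within the table's bounds of Ctla4, with a median of 4 counts.

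Pdcd1, which encodes PD-1 (ENSMUSG00000026285, chromosome 1, from 94038305 to 94052553, minus strand), differed between codes (adjusted p = 0.0262). Both R63494 libraries, at 6.47 and 6.54 CPM, stood above each of the other 15. R63289 followed with 5.23, 3.33 and 5.41 CPM. R63496 was lowest, at 2.39, 1.29 and 3.14 CPM, and overlapped R62848 (2.30 to 4.29 CPM), R62850 (1.88 to 4.11 CPM) and R63500 (2.73 to 3.98 CPM). From the lowest to the highest library the level rose 5.08-fold, on 23 and 152 counts. The result depended on few libraries: the adjusted p was 0.0846 without R63494_1, 0.0911 without R63494_2 and 0.0508 without R63496_2.

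Relative to Cd3e the Pdcd1 ratio per length had a median of 0.339 and reached 0.983 in R63494_2, the library with the second lowest Cd3e. Both R63494 libraries were low in Cd4, as given above, but R63494_1 had 8.14 CPM of Cd3e and 11.3 CPM of Cd3g, each above the median. Over 17 libraries Pdcd1 and Cd3e had an r of 0.31, and 0.56 with code means subtracted.

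Cd274, the gene of PD-L1 (ENSMUSG00000016496, chromosome 19, from 29367455 to 29388095, plus strand), had 92 to 210 counts. Its lowest level was 5.02 CPM in R62848_2, its median 7.94 CPM and its highest 12.6 CPM in R63494_1. The spread lay within codes: R63494 held 12.6 and 5.85 CPM, R63496 held 5.12, 5.70 and 10.9 CPM, and the coefficient of variation was 30.1% within codes and 28.4% over all. Among the 9 tested genes Cd274 had the weakest evidence of a difference between codes (adjusted p = 0.596), and it did not pass under any of the 24 other settings tried (0.182 to 0.778). Per length Cd274 exceeded its receptor gene Pdcd1 in 12 of 17 libraries, with a median ratio of 1.24.

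The patterns most like that of Cd274 belonged to Zfp300 (r = 0.88), Nub1 (0.78), Pcdhb6 (0.77), Zc3h14 (0.77) and Slc13a4 (0.75) over 17 libraries. Zfp300, Pcdhb6 and Slc13a4 had at most 1.197 CPM and rest on few counts, whereas Nub1, which encodes a regulator of the ubiquitin-like NEDD8 system, ran from 59.97 to 82.4 CPM. With code means subtracted Cd274 had an r of 0.79 with Cd3g, against 0.28 before.

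Il17a, the gene of the type 17 cytokine IL-17A (ENSMUSG00000025929, chromosome 1, from 20730905 to 20734496, plus strand), varied most of the 10 genes. R63289 had 69, 35 and 38 counts, or 3.44, 2.01 and 2.12 CPM. The R63494 libraries had 30 and 28 counts, or 1.80 and 1.204 CPM. In R62850 the middle library had 25 counts (1.34 CPM) and the other two had 0, which allows up to 0.167 CPM in R62850_1 and 0.202 CPM in R62850_3 at the limit of 3 counts. R62848 had 1, 3 and 0 counts, R63496 had 2, 1 and 8, and R63500 had 10, 4 and 2, none of them above 0.480 CPM. The highest R63289 level, 3.44 CPM, was 16.98-fold that of R62850_3 when the 0 of that library is taken as 3 counts. This ratio leaves out the counting error of the 69 counts and is not a lower bound.

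The code test of Il17a passed (adjusted p = 0.0067), and it held in all 24 other settings, with adjusted p-values of 8.13e-05 to 0.0275. The gene entered the test through few libraries: 6 of the 17 reached the 0.559 CPM that the filter required in at least 2, so it was bound to vary. With every gene of at least 1 count tested, it still passed. Il17f, the neighbour cytokine gene, reached 1.497 and 0.602 CPM in R63494 and at most 0.466 CPM elsewhere (adjusted p = 0.214), and Il22 had a count in 2 libraries.

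Gzmb, the gene of the killer protease granzyme B (ENSMUSG00000015437, chromosome 14, from 56258856 to 56262260, minus strand), had 56 counts in all 17 libraries together, 0 to 8 in each. Its highest level was 0.429 CPM in R62850_2 and its median 0.167 CPM. R62850_3, R63289_1 and R63494_2 had none, which allows up to 0.202, 0.149 and 0.129 CPM. Differences in Gzmb were not detectable at this depth: counting alone gives a coefficient of variation of 55.1%, against 75.8% observed, and with every gene of at least 1 count tested by edgeR its adjusted p was 0.825.

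**Figure D4:**
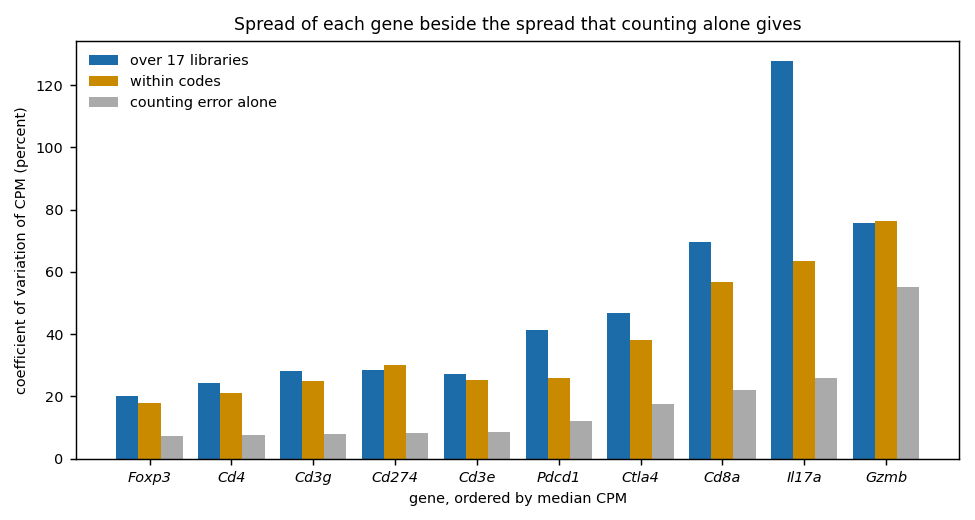
Coefficient of variation of CPM in percent (vertical axis from 0) for each gene, over 17 libraries (blue), within codes (ochre) and from counting error alone (grey). Il17a spreads far more over all libraries (128%) than within codes (63.5%), Cd274 no more (28.4% and 30.1%), and counting error alone comes to 55.1% for Gzmb, against 75.8% observed.

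Other genes of T cells and their partners were read from lists, as counts of genes that passed between codes beside the 42.2% of all tested genes. Of the 18 genes of the receptor complex and its signalling 4 passed, or 22.2%. By RPKM the leading genes were Thy1 (median 110 RPKM), which fibroblasts and nerve also make, and the receptor constant genes Trbc2 (12.7 RPKM) and Trac (10.7 RPKM). Trac was highest in R62850_3, at 10.8 CPM (9.16 CPM by total counts), and otherwise between 2.18 and 6.50 CPM (adjusted p = 0.463). Cd2, an adhesion receptor of T cells and among those that passed, had the widest range, from 0.731 CPM in R63494_2 to 6.71 CPM in R62850_2 (adjusted p = 0.0191).

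Of the 9 cytotoxic genes tested 1 passed, Eomes (adjusted p = 0.0409), a lineage factor with a median of 3 counts. The most abundant was the chemokine gene Ccl5 (median 2.45 RPKM), followed by Nkg7 (0.892 RPKM) and Gzma (0.444 RPKM). Prf1, the gene of perforin, had a median of 6 counts, and Ifng a median of 1 with 8 libraries at 0.

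Of the regulatory T cell genes 3 of 9 tested passed. Tgfb1 (median 23.1 RPKM, adjusted p = 0.0355) and Lrrc32 (6.08 RPKM), which presents latent TGF-beta, led with Tnfrsf18 (4.72 RPKM), the gene of GITR. Lrrc32 had its lowest level, 14.2 CPM, in R63494_1 and its highest, 66.2 CPM, in R63500_2 (adjusted p = 7.13e-10). The fibroblast gene Col1a1 had its extremes in the same libraries, at 427 and 3215 CPM, and so had Col1a2 and the endothelial gene Kdr. The other genes of that marker list, Dcn, Pdgfra, Pdgfrb, Pecam1 and Cdh5, did not share both extremes. Platelets and endothelial cells are known to make Lrrc32. The part of such cells in its level was not tested. Il2ra lay between 2.61 and 7.22 CPM and did not pass (adjusted p = 0.246). Of 10 genes of naive and memory T cells 3 passed, and these were also the 3 most abundant. They were Tcf7 (8.56 to 22.5 CPM), S1pr1 (9.62 to 29.2 CPM) and the IL-7 receptor gene Il7r (10.8 CPM in R63494_1 to 34.3 CPM in R63500_3). S1pr1 and the endothelial gene Pecam1 (37.1 to 109 CPM) were both lowest in R63496_2 and highest in R62848_1. The endothelial genes Cdh5 and Kdr had their extremes in other libraries. The part of endothelial cells in the S1pr1 level was not tested.

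Among other checkpoint receptors 5 of 10 passed. Vsir, which encodes VISTA, a checkpoint protein also abundant on myeloid cells, was the most abundant (median 11.2 RPKM; 30.2 CPM in R63494_2 to 110 CPM in R62848_2, adjusted p = 2.59e-07). Entpd1, the gene of the ATP-splitting enzyme CD39 (9.55 RPKM, adjusted p = 0.0422), and Havcr2, the gene of TIM-3 (4.59 RPKM, adjusted p = 0.992), followed. Btla, an inhibitory receptor of lymphocytes, had the widest range of those that passed, from 1.71 CPM in R63500_3 to 7.27 CPM in R63496_3 (adjusted p = 0.00139). Lag3 lay between 1.44 and 4.41 CPM and did not pass (adjusted p = 0.74).

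Of the genes of checkpoint and costimulatory ligands 7 of 12 tested passed. The median over the list was 4.77 RPKM, beside 1.26 RPKM over the other checkpoint receptors. Lgals9, which encodes the TIM-3 ligand galectin-9, had a median of 87.5 RPKM (adjusted p = 0.000705), Nectin2, a ligand of TIGIT and PVRIG, 45.8 RPKM (adjusted p = 3.01e-05), and Vtcn1, which encodes B7-H4, 27.7 RPKM (adjusted p = 0.000552), beside 2.19 RPKM for Cd274. Tnfsf9, the gene of the 4-1BB ligand, ranged most among those that passed, from 1.68 CPM in R63496_2 to 9.18 CPM in R62850_2 (adjusted p = 0.0205). Pdcd1lg2, the gene of the second PD-1 ligand PD-L2, had a median of 6 counts, and Ido1, an enzyme that depletes tryptophan, a median of 0.

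In the type 17 list 7 of 12 tested genes passed. Il1b (median 53.3 RPKM) ran from 31.9 CPM in R63500_3 to 186 CPM in R63496_3 (adjusted p = 0.000979), and the receptor genes Il17rc (32.9 RPKM, adjusted p = 0.0665) and Il17re (31.9 RPKM, adjusted p = 0.000381) lay well above the cytokine Il17a. In the interferon gamma list 8 of 14 passed. Ifngr1 (67.7 RPKM, adjusted p = 0.00266), Ifngr2 (42.6 RPKM, adjusted p = 0.117) and the kinase gene Jak1 (25.6 RPKM, adjusted p = 0.0106) led. Cxcl9, a chemokine that interferon gamma induces, had the widest range of those that passed, from 1.93 CPM in R62848_3 to 12.5 CPM in R63494_1 (adjusted p = 0.00055). R63494_1 was also the library with the highest Cd274, but R63494_2 had 5.85 CPM of Cd274. A link between Cxcl9 and Cd274 was not tested.

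**Figure D5:**
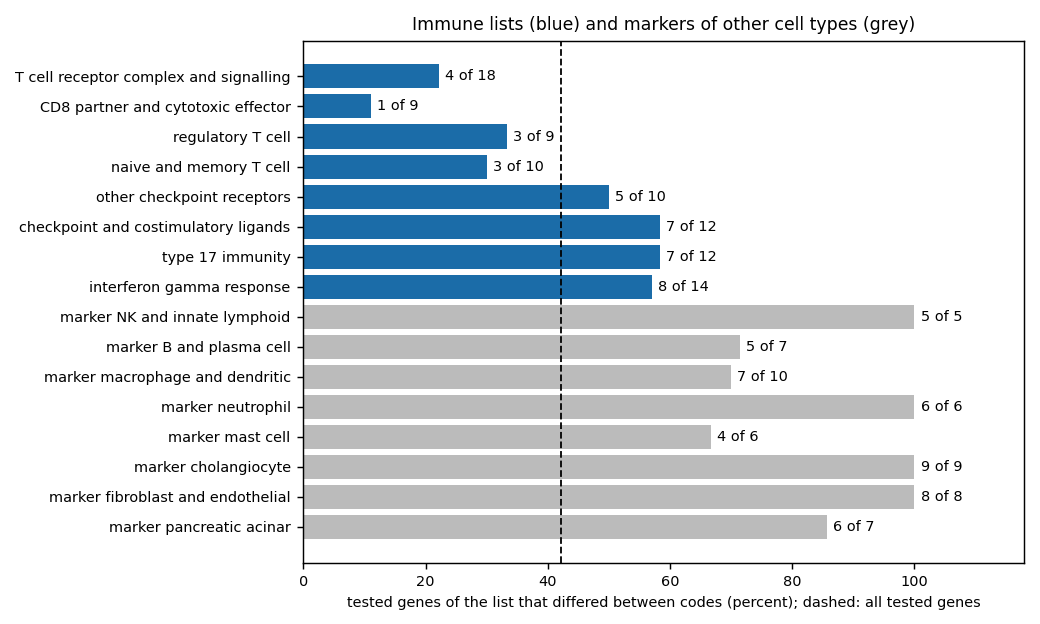
Percent of tested genes that passed between codes (horizontal axis) in 8 immune lists (blue) and 8 marker lists of other cell types (grey), with the counts beside each bar and a dashed line at 42.2%, the share of all tested genes. The receptor, cytotoxic, regulatory and naive lists lie below the line, at 11.1% to 33.3%. The other 4 immune lists (50% to 58.3%) and the 8 marker lists (66.7% to 100%) lie above it. Of all genes in the level span of the 9 tested members 28.5% passed. That span is not matched to the lists: the receptor, regulatory and naive lists also hold genes above it.

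Markers of other cells that could carry these transcripts passed between codes in most cases: 9 of 9 for cholangiocytes, 8 of 8 for fibroblasts and endothelium, 6 of 6 for neutrophils, 7 of 10 for macrophages and dendritic cells, 5 of 7 for B and plasma cells, 5 of 5 for NK and innate lymphoid cells, 4 of 6 for mast cells and 6 of 7 for pancreatic acinar cells. Their summed levels spanned 258 to 1610 CPM for neutrophils, 298 to 652 CPM for macrophages and dendritic cells, 125 to 284 CPM for NK and innate lymphoid cells and 13.6 to 84.9 CPM for mast cells. Fibroblast and endothelial markers summed to 1685 to 7408 CPM and cholangiocyte markers to 6243 to 8975 CPM. The NK gene Ncr1 was at 0 in 9 libraries, Klra4 in 16 and Klra8 in 15. Klrb1c and Klrb1b of the same list had counts in every library, with medians of 25 and 30 counts. Both passed between codes (adjusted p = 0.00144 and 0.00488). Most of the NK and innate lymphoid sum was Id2 (median 182 CPM), which many cells make. The part of these cells in the levels of the 10 genes was not tested.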

How the data were processed

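The deposited counts are whole numbers of reads per gene, per the file headers. The table's other 17 columns of per-sample values were not used. The submitters' processing notes name the build mm10 and, without roles, edgeR 3.40.2, featureCounts and STAR 2.6.1c. The sources used here state neither the annotation release nor a strand setting. All 17 columns of counts belong to the single group bile duct. Genes were filtered with filterByExpr by code (19412 kept), scaled with TMM and tested in R 4.3.3 with edgeR 4.0.16 (glmQLFit with a robust prior, F test over all codes), after a check on simulated counts. RPKM were computed from counts, TMM-scaled totals and table lengths. Log2 CPM used a prior count of 2. Strand comes from GENCODE M21. Intervals are exact and cover counting error only. PCR copies of a molecule can be counted more than once, which the intervals do not allow for.

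The members and lists were chosen with earlier results of these data known. Of 165 list genes outside the members 164 were found, 4 by identifier. Named are all members, in each immune list the 3 genes highest in median RPKM and the gene that passed with the widest log2 range (of the marker lists, only those a result touches), and the 5 protein-coding genes most alike in pattern to Cd3e and Cd274. Cd247, Cd3d, Cd8b1, Xcr1, Clec9a, Flt3, Itgax, Il2ra, Ccdc22, Il17f, Il22, Lag3, Prf1, Ifng, Pdcd1lg2 and Ido1 were named after their values were seen. So were Ncr1, Klra4, Klra8, Klrb1b, Klrb1c, the fibroblast and endothelial genes, and the genes set beside Il17a in the closing section. Results on some list genes are not reported here.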

Additional observations from a re-analysis of the deposited data

How the results depend on the processing

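The 3 of 9 members that passed stayed 3 of 9 with DESeq2 size factors, total counts, a filter of at least 1 CPM in at least 3 libraries, the DESeq2 likelihood ratio test, limma-voom, and without the 3 R62850 libraries. Over all genes, in that order, 8214, 7853, 8176, 9529, 8126 and 6894 passed, of 19412, 19412, 17340, 19411, 19412 and 19038 tested. With no filter beyond 1 count 5 of 10 members passed, beside 8543 of 29354 genes. Cd3g (0.0249) and Cd4 (0.0341) were the members added. Leaving out each library in turn gave 2 to 4 members, 7188 to 8531 of all genes and 80 to 92 of the list genes, where R63494 kept a single library in 2 fits, assumed to vary like the others. Cd3g passed without R63494_1 (0.0136) or R63494_2 (0.0265). The comparison of RPKM with the authors' own length-scaled columns was not run. Members with a median of at least 1 CPM numbered 7 under both other scalings, without R62850 and with each library left out. With code means subtracted r fell to 0.813 for Trim23 with Cd3e and 0.868 for Zfp300 with Cd274. No paired analysis was possible because the labels give 1 group. Depth limits Gzmb, Il17a and Cd8a most.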

Other observations

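The pattern of Il17a was set beside those of other genes after its values had been seen. Over 17 libraries the protein-coding genes most like it were Chat (r = 0.91), Nefm (0.87), Nrgn (0.85), Gnat3 (0.84) and Strip2 (0.82), given without a p. Chat, which makes acetylcholine, and Gnat3, a taste-type G protein, are known from tuft cells, the chemosensory cells of the duct lining. Chat had 31, 33 and 29 counts in R63289, 34 and 18 in R63494, and 1, 17 and 0 in R62850, where Il17a had 0, 25 and 0. It also had 17, 5 and 11 in R63500, where Il17a had 10, 4 and 2, and R63500_1 (0.816 CPM) was above R63494_2 (0.774 CPM). Gnat3 had 275, 287 and 147 counts in R63289, 110 and 40 in R63494, and 0, 11 and 0 in R62850, but 23, 37 and 10 in R63496 and 36, 6 and 18 in R63500. At 2.07 CPM R63496_2, with 1 count of Il17a, was above R63494_2 (1.72 CPM) for Gnat3. Chat kept an r of 0.78 with code means subtracted, Gnat3 0.58 and Nrgn 0.38. Trpm5, the taste channel of tuft cells, stood at 43.9 to 65.3 CPM in R63289 and R63494 and at 4.11 to 24.5 CPM in the other 12 libraries. Within R62850 it stood at 4.11, 6.01 and 4.38 CPM. Trdv4, a variable gene of the gamma delta T cell receptor, had 53, 40 and 39 counts in R63289 and 55 and 61 in R63494, but also 61 in R62848_1 and 57 in R63500_3, where Il17a had 1 and 2.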
